A study of Mus musculus with 4 samples.

Results

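The interferon regulatory factors are DNA-binding proteins that switch on interferon genes and the genes that interferons induce. Of the family, 8 genes are described here: Irf1, Irf2, Irf3, Irf4, Irf5, Irf7, Irf8 and Irf9. They were chosen by name, as every non-control probe on the array that carries one of these symbols, which gave 9 probes for the 8 genes among 31896 named genes with a probe. Irf1 had 2 probes and each of the others had 1, and the brightest probe stood for its gene.

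The cells were grown out of mammary tumours of MMTV-Neu mice, a breast cancer model in which a viral promoter active in mammary epithelium expresses the oncogene Neu, also called Her2. The study compared 2 samples labelled Pak1 -/-, described as deficient in the p21-activated kinase Pak1, with 2 labelled Pak1 +/+, and used cells of different tumours for the 2 samples of each group. All 4 were cultured in low calcium medium with 5% horse serum, deprived of serum for 3 h and given EGF for 15 min, so no unstimulated cells and no cells given interferon are among them. Total RNA was hybridised to single-colour (Cy3) Agilent mouse arrays with probes of 60 bases.

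Interferon regulatory factors share a DNA-binding domain that reads the interferon-stimulated response element (ISRE), a DNA element built from repeats of GAAA. Irf3, Irf5 and Irf7 lie dormant in the cytoplasm until sensors of foreign nucleic acid have them phosphorylated. Irf9 binds Stat2 and brings it to DNA after an interferon has bound its receptor. Irf1 is an activator that interferon induces and Irf2 is known as its antagonist. Irf4 and Irf8 are best known from white blood cells, where they act with partners such as PU.1 (Spi1). The arrays measure RNA, and the phosphorylation that activates several of these proteins was not analysed here.

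The probes read each gene at 1 place, and the middle 30 bases of the probes that carry the results are shown so that the measured stretch of RNA can be identified. Positions are those of the files on mm9.
Irf1 (A_55_P2000062, chr11:53590746-53590805, plus strand): tggtcatgtggtggacctgtgtaaatatgt
Irf1 second probe (A_55_P2000067, chr11:53591817-53591876, plus strand): aataccaaccccacagcatacattatacat
Irf5 (A_51_P346668, chr6:29486901-29486960, plus strand): aagaacatagaagagaggcctgaggtttca
Irf7 (A_51_P421876, chr7:148450664-148451014, minus strand): acttagccgggagcttggatctactgtggg
Irf8 (A_52_P354823, chr8:123280324-123280383, plus strand): cagagtgtgtgatacatgcaaacagaatcc
Irf9 (A_55_P2114938, chr14:56228806-56228865, plus strand): cctttagaaatgtgagctccaaattaaatt
The Irf7 probe covers more genomic bases than it has, and so crosses a splice junction. The other probes lie within 1 unbroken stretch. Which exon or untranslated region each one falls in was not analysed here.

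The promoters of 4 genes, Irf1, Irf2, Irf7 and Irf8, are shown because interferon signalling reaches this family through short DNA elements. Each stretch is the 250 bases before the RefSeq start on GRCm38.p6, from 5′ to 3′ on the gene's strand. Capitals mark a match on either strand to the core of the ISRE, GAAANNGAAA, or to the Stat-binding GAS element, TTCNNNGAA.
Irf1 (chr11:53769764-53770013, plus strand): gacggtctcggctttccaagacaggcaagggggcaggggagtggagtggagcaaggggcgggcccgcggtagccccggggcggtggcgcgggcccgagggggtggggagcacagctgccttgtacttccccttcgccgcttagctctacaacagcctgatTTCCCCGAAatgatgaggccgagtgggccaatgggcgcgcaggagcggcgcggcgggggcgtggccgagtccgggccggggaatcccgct
Irf2 (chr8:46739495-46739744, plus strand): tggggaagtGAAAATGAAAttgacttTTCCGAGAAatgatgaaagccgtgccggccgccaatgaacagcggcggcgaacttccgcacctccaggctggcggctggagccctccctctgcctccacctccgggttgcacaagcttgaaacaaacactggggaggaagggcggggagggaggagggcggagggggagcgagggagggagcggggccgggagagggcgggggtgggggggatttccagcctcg
Irf7 (chr7:141266425-141266674, minus strand): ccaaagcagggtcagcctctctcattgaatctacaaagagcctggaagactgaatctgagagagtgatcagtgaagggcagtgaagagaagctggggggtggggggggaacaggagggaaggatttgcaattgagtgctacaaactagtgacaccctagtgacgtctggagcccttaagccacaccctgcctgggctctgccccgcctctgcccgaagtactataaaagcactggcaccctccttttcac
Irf8 (chr8:120736108-120736357, plus strand): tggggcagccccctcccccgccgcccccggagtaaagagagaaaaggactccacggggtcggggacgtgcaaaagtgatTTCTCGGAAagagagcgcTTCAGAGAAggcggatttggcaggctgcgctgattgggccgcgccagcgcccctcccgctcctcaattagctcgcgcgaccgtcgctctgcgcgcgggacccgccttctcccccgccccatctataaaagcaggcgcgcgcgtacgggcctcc
Irf1 had 1 GAS match, at -90 to -82. Irf2 had an ISRE match at -241 to -232 and a GAS match at -224 to -216, which do not overlap. Irf8 had 2 GAS matches, at -171 to -163 and -153 to -145. Neither set of letters occurred in the windows of Irf3, Irf4, Irf5, Irf7 or Irf9, nor in the second windows listed for Irf1, Irf8 and Irf9. Among all 32851 promoter windows of 300 bases, the ISRE core occurred in 3.443% and the GAS element in 8.298%.

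Intensities are given as normalized log2 values, and differences are Pak1 -/- minus Pak1 +/+ on the log2 scale. Testing was limited to probes whose signal stood well above background in 2 or more of the 4 samples. Each difference carries its standard error (SE) and a p-value from limma, adjusted by the Benjamini-Hochberg method over all tested probes, with 0.05 as the threshold. The brightness of a spot depends on its probe's sequence, so levels are compared between samples for 1 probe and never between genes.

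Of the 7 genes that were tested, 4 were higher in the samples labelled Pak1 -/- (Irf1, Irf5, Irf7 and Irf9) and 1 was lower (Irf8). Irf8 was well above background only in the Pak1 +/+ samples and entered the test through them alone. Irf2 and Irf3 did not pass the threshold, and Irf4 was not above background on any array. Across all 22005 tested genes, 22.8% were higher and 28.2% were lower. The median difference of the 7 genes was 1.18, beside -0.055 over all tested genes. The brightest probe of each of the 8 genes had no overlap between the groups, which was also so for 77.6% of all tested genes with a value on every array, so the lack of overlap alone does not set these genes apart.

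**Figure D1:**
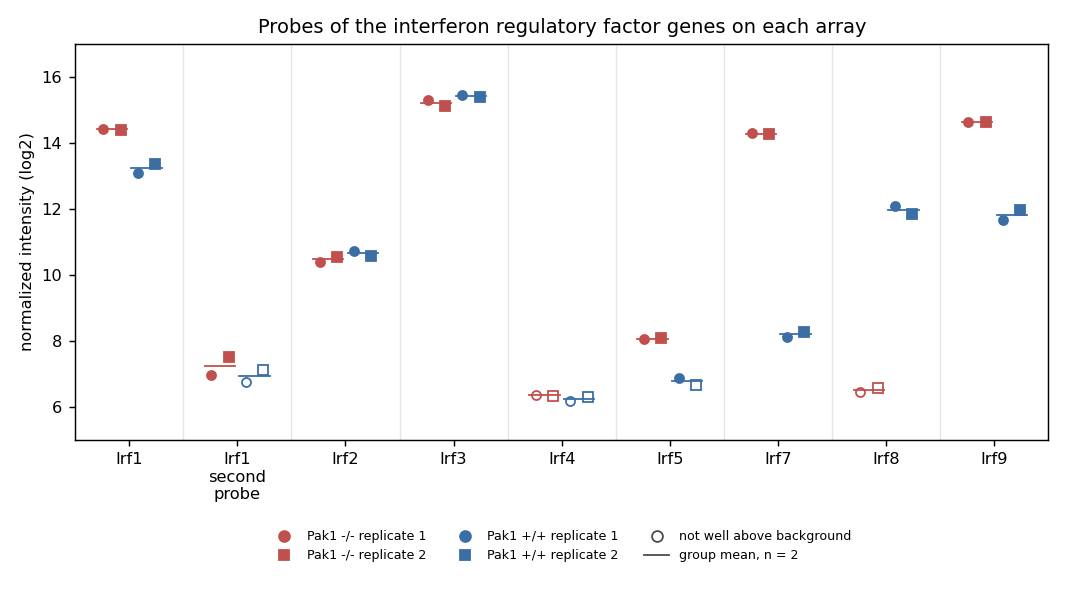
Normalized log2 intensity (vertical axis) of the 9 probes on each of the 4 arrays, with circles for replicate 1, squares for replicate 2, short lines for group means and open symbols where the spot was not well above background. Irf7 stood near 14.3 in both Pak1 -/- samples and near 8.2 in both Pak1 +/+ samples, while Irf8 ran the other way and Irf4 stayed at background.

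The labels could not be checked from Pak1 itself. Its probe read 12.21 and 12.25 in the samples labelled Pak1 -/- and 12.04 and 12.04 in those labelled Pak1 +/+, a difference of 0.19 (SE 0.07, limma adjusted p = 0.070). It was thus not lower in the cells labelled as lacking the gene, and where the deletion lies relative to the probe is not given in the sources used here. Every direction below is taken from the labels. The median spot intensity was 322 to 331 on the 4 arrays over a local background of 39 to 42. Both Pak1 -/- arrays held the first positions of the 1 slide and both Pak1 +/+ arrays the last, so position and genotype cannot be told apart.

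Among the factors that respond to nucleic acid sensing, Irf7, the master regulator of the interferon-alpha genes, had the largest increase of the family. Its probe read 14.30 and 14.26 in the Pak1 -/- samples against 8.10 and 8.28 in the Pak1 +/+ samples. In raw intensity the 4 values were 18877, 20144, 267 and 291. Both Pak1 -/- samples were far above both Pak1 +/+ samples, and the samples of a group lay within 0.2 of each other. The difference was 6.09 (SE 0.09, 95% confidence interval 5.85 to 6.32, limma adjusted p = 4.2e-05), or 68.1-fold. This was the 32nd largest increase among 22005 tested genes.

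Irf3, which is present in most cells and starts the first wave of interferon-beta, was bright on every array. Its values were 15.31 and 15.13 in the Pak1 -/- samples and 15.45 and 15.41 in the Pak1 +/+ samples. The 2 Pak1 -/- values were the lower ones, but the difference of -0.20 (SE 0.09, interval -0.44 to 0.03, limma adjusted p = 0.12) did not pass the threshold. Under cyclic loess in place of quantile normalization, the Irf3 difference was -0.06.

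Irf5, which acts below Toll-like receptors and is best known from macrophages and dendritic cells, gave a dim signal. Its probe read 8.05 and 8.07 in the Pak1 -/- samples and 6.86 and 6.67 in the Pak1 +/+ samples, where only replicate 1 was well above background. The raw values were 253, 257, 102 and 85.7. Irf5 was higher in both Pak1 -/- samples by 1.29 (SE 0.09, interval 1.05 to 1.54, limma adjusted p = 0.00079), or 2.45-fold. The size depended on how background was treated: the difference was 2.37 from the scanner software's background-subtracted signal.

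Irf9, the DNA-binding subunit of the complex that relays type I and type III interferon signals, read 14.65 and 14.62 in the Pak1 -/- samples and 11.66 and 11.97 in the Pak1 +/+ samples. The groups were clearly apart, with the Pak1 +/+ samples differing more from each other than the Pak1 -/- samples did. The difference was 2.82 (SE 0.12, interval 2.49 to 3.14, limma adjusted p = 0.00024), which is 7.05-fold and the 247th largest increase.

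Irf1, an activator of antigen presentation and of many genes that interferon-gamma induces, was read by 2 probes. The brightest read 14.43 and 14.38 in the Pak1 -/- samples and 13.10 and 13.36 in the Pak1 +/+ samples, a difference of 1.18 (SE 0.11, interval 0.89 to 1.46, limma adjusted p = 0.0015), or 2.26-fold. The second probe, which the array assigns to another transcript of the gene, was dim. It read 6.97 and 7.50 in the Pak1 -/- samples and 6.76 and 7.11 in the Pak1 +/+ samples, where neither spot was well above background. Its groups overlapped and its difference of 0.30 (SE 0.22, limma adjusted p = 0.30) did not pass the threshold. Averaging both probes gave Irf1 a difference of 0.74, which still passed.

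Irf2, which binds the same sites as Irf1 and is known mainly as a repressor, read 10.39 and 10.55 in the Pak1 -/- samples and 10.74 and 10.57 in the Pak1 +/+ samples. Pak1 -/- replicate 2 and Pak1 +/+ replicate 2 were almost equal. The difference of -0.18 (SE 0.10, interval -0.44 to 0.08, limma adjusted p = 0.19) did not pass the threshold.

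Irf8, a factor of the myeloid and B cell lineages that interferon-gamma can also induce in other cells, was the only one of the 7 tested genes that was lower. Its probe read 6.44 and 6.58 in the Pak1 -/- samples, where neither spot was well above background, and 12.10 and 11.84 in the Pak1 +/+ samples. The raw values were 72.0 and 79.6 against 4491 and 3559. Both Pak1 +/+ samples thus held a clear Irf8 signal and both Pak1 -/- samples held none above background. Irf8 therefore entered the test through the Pak1 +/+ samples alone, the group in which it is high. The fitted difference was -5.46 (SE 0.12, interval -5.76 to -5.16, limma adjusted p = 6.0e-05). Since the Pak1 -/- values are at background, the ratio is a bound: Irf8 was at least 40.8-fold lower in the Pak1 -/- samples. The bound sets the mean of the Pak1 +/+ samples against the lowest level at which probes on the Pak1 -/- arrays were well above background.

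Irf4, which acts in lymphocytes, plasma cells and some dendritic cells, read 6.36 and 6.32 in the Pak1 -/- samples and 6.17 and 6.29 in the Pak1 +/+ samples. No spot was well above background, so Irf4 was not detectable on any array. The closest relative of Irf8 in the family was thus below detection in the cells that held an Irf8 signal.

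**Figure D2:**
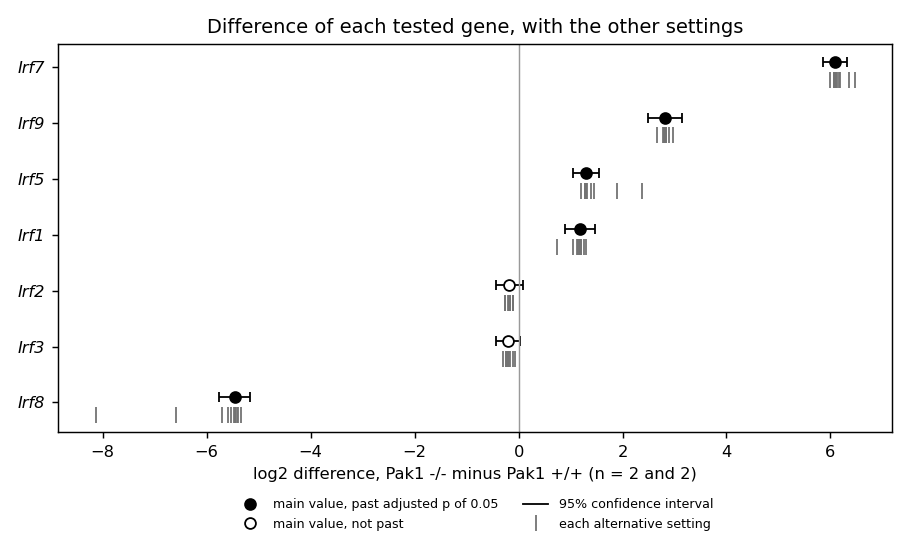
Log2 difference (horizontal axis, Pak1 -/- minus Pak1 +/+, n = 2 and 2) of the 7 tested genes, with 95% confidence intervals as bars and 1 grey tick for each alternative setting below each value. No tick crosses 0, and the widest spreads are those of Irf8 and Irf5, which were dim in 1 of the groups.

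Because Irf8 and Irf4 are best known from blood cells, markers of those cells were read on the same arrays. Of 23 white blood cell markers, 7 were above background on no array and 11 were above it on all 4. Among the 12 that were tested, none was higher and 6 were lower in the Pak1 -/- samples, led by Cd14 (-1.70) and Adgre1 (-1.05). Over all tested genes, 22.8% were higher and 28.2% lower. The summed intensity of the 23 markers was 375615 and 311713 in the Pak1 -/- samples and 413307 and 391172 in the Pak1 +/+ samples. The sum adds the spots of different probes, so it weights each gene by the brightness of its probe, and the probes of Siglech, Cd14 and Itgam weighed most. Siglech (0.26) and Itgam (0.49) did not pass, and a second Siglech probe was above background on no array. The other 20 markers summed to 13404 and 13433 in the Pak1 -/- samples and to 15043 and 15306 in the Pak1 +/+ samples. Among these 20 the Cd4 probe weighed most, with log2 values of 12.40 and 12.50 against 12.83 and 12.77. It fell by 0.35, while a second Cd4 probe (-0.08) did not pass. The markers Laptm5, Tyrobp, Lyz2, Itgax and Xcr1 were not above background in the samples with the Irf8 signal, while Csf1r, Fcer1g, Coro1a and Cd68 were above it on all 4 arrays. Coro1a fell by 0.93 and Fcer1g by 0.37, and Csf1r (0.12) and Cd68 (-0.20) did not pass. Fcer1g missed the threshold with the processed signal (-0.36) and with cyclic loess (-0.27). Ptprc, the pan-leukocyte gene Cd45, read 7.15 and 7.14 in the Pak1 -/- samples and 7.59 and 7.60 in the Pak1 +/+ samples. The part of these markers in the Irf8 difference was not tested, and in RNA from bulk cells, fewer cells of a type and less RNA per cell cannot be told apart. The epithelial genes Krt8, Krt18, Epcam and Cdh1 and the oncogene Erbb2 were well above background on all 4 arrays, and Krt19 on 3. These markers moved with the groups too. Of 7 epithelial genes, Cdh1 (1.19), Krt8 (0.57) and Krt18 (0.27) were higher, Erbb2 fell by 0.31 and 3 did not pass. The shares over all tested genes were 22.8% higher and 28.2% lower. All 3 basal epithelial markers, Krt14 (2.83), Krt5 (0.50) and Trp63 (0.43), were higher in the Pak1 -/- samples. The smaller of these calls were lost under some alternatives, Krt18 with the replicate block (limma adjusted p = 0.056) and without any 1 of the samples. Under 75th percentile scaling, Krt18 was 0.037 with the processed signal and 0.041 with the normexp values. Krt8 was 0.27 with the processed signal so scaled, and none of these values passed. Of 4 fibroblast genes 3 were tested, of which Col1a1 was higher by 1.12 (limma adjusted p = 0.0051) and Col1a2 (0.03) and Pdgfra (-0.16) did not pass. The endothelial genes Cdh5 (0.26), Kdr (0.04) and Pecam1 (-0.09) did not pass either. A second, dimmer Kdr probe, well above background on 2 arrays, was higher by 1.37 (limma adjusted p = 0.00046). The part of these markers in the differences of the family was not tested.

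**Figure D3:**
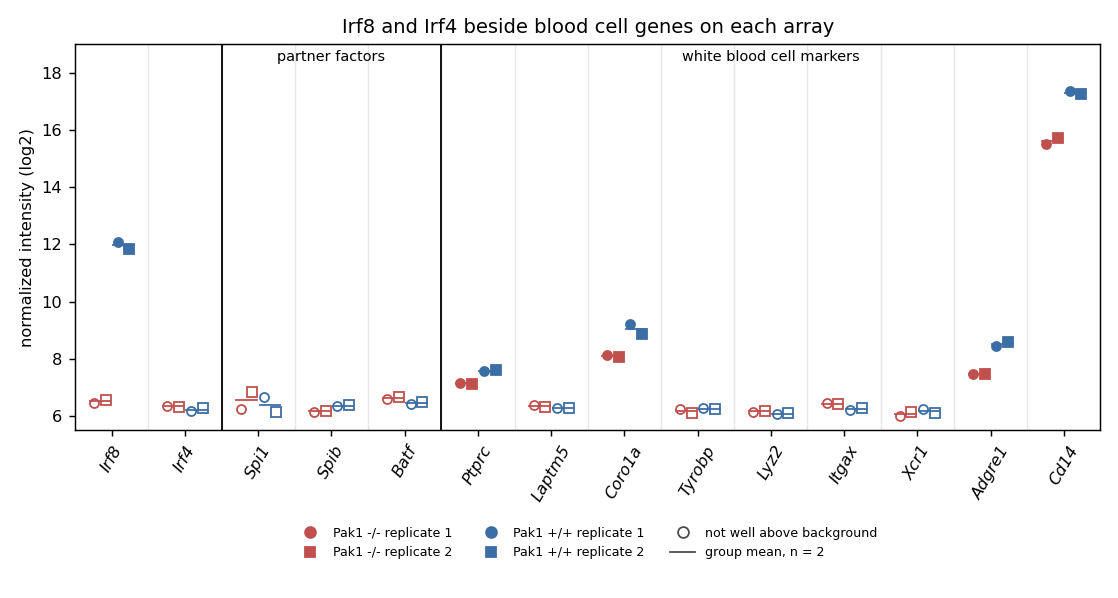
Normalized log2 intensity (vertical axis) of Irf8 and Irf4, of 3 partner factors and of 9 of the 23 white blood cell markers on each array, with open symbols where a spot was not well above background. Irf8 is near 12 in both Pak1 +/+ samples, in which Irf4, Spi1, Spib and Batf are at background, and Ptprc, Coro1a, Adgre1 and Cd14 are lower in the Pak1 -/- samples.

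Of 9 genes for factors that act together with the family, 6 were tested, of which 2 were higher, 1 was lower and 3 did not pass, with a median difference of 0.25. Over all tested genes, 22.8% were higher and 28.2% lower. Stat2, the partner of Irf9, read 13.73 and 13.42 against 10.72 and 10.90, a difference of 2.77 (SE 0.13, limma adjusted p = 0.00030). Both Pak1 -/- samples were above both Pak1 +/+ samples, as for Irf9 itself. The NF-κB subunit Rela was higher by 0.52, while Nfkb1 (0.11), and the coactivators Crebbp (0.38) and Ep300 (0.02), did not pass. Crebbp passed with the replicate block (limma adjusted p = 0.031), with cyclic loess, where signal was required on all 4 arrays, and without Pak1 -/- replicate 2. Of the blood cell partners of Irf4 and Irf8, Spi1, Spib and Batf were above background on no array and Batf3 fell by 0.58 (limma adjusted p = 0.0038). Of 3 genes named for binding Irf2, Irf2bp2 was higher by 0.65 on its brightest probe and by 0.59 on the other, and Irf2bp1 (-0.20) and Irf2bpl (0.19) did not pass.

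The genes that carry a signal to Irf3, Irf5 and Irf7 are sensors, adaptors and kinases. Of 19 such genes, all of them tested, 9 were higher, 6 were lower and 4 did not pass, and their median difference was 0.18. The share that was lower is close to the 28.2% of all tested genes, and the share that was higher lies above the 22.8%. The sensors of RNA and DNA in the cytoplasm were all higher. Dhx58 (Lgp2) differed by 4.65, Ifih1 (Mda5) by 3.90, Ddx58 (RIG-I) by 2.11 and Mb21d1 (cGAS) by 1.18, each past the threshold. The Toll-like receptors Tlr4 (0.88) and Tlr3 (0.65) were also higher, while Tlr7 (-0.06) and Tlr9 (0.15) did not pass.

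The adaptors and kinases between the sensors and the factors had smaller differences, in both directions. Traf3 (0.74), Irak4 (0.53) and Ticam1 (0.53) were higher. Irak1 (-0.78), the kinases Ikbke (-0.74) and Tbk1 (-0.34) that phosphorylate Irf3 and Irf7, the scaffold Tank (-0.37), the adaptor Mavs (-0.28) and Tmem173, known as STING (-0.35), were lower. Myd88 (0.09) and Traf6 (0.18) did not pass, although a second Traf6 probe was higher by 0.35. The smaller differences depended on the samples used. Tlr3 missed the threshold without Pak1 -/- replicate 2, and Irak4 without either Pak1 -/- replicate 2 or Pak1 +/+ replicate 2. Mavs missed it with the replicate block (limma adjusted p = 0.052) and without any 1 of the samples. The 6 lower genes became 2 without Pak1 +/+ replicate 2 and 3 without any 1 of the others.

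Of 7 genes known to restrain this signalling, 5 were higher, 1 was lower and 1 did not pass, with a median difference of 0.44, beside 22.8% higher and 28.2% lower over all tested genes. Trim21, a ubiquitin ligase for members of the family, was higher by 1.83 and the feedback inhibitor Socs1 by 1.35, followed by Tnfaip3 (0.55) and Rbck1 (0.44). The gene that did not pass was Cyld (0.03), although its second probe was higher by 0.49 (limma adjusted p = 0.030). Socs3, the inhibitor of Stat3 signalling, fell by 1.60. Without either Pak1 +/+ replicate 1 or Pak1 +/+ replicate 2, the counts were 3 higher and 1 lower.

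Of 13 interferon genes, 12 had a probe and 9 were tested, and none passed in either direction, with a median difference of 0.069. Before adjustment, 1 of them was under 0.05 in limma, Ifna2, with a difference of 0.21 and a limma adjusted p of 0.056. Ifna2 passed with an offset of 0, with cyclic loess and with the filter on all 4 arrays, while Ifna12 passed as lower without Pak1 -/- replicate 2 (-0.71) and Ifna11 as lower without Pak1 +/+ replicate 1 (-1.44). Ifnb1 read 7.96 and 8.0 in the Pak1 -/- samples and 7.93 and 6.67 in the Pak1 +/+ samples, so that 1 sample set the difference of 0.68 (SE 0.42, limma adjusted p = 0.24). That sample, Pak1 +/+ replicate 2, had 62.2% of its probes above background, against 67.7% to 70.4% on the other arrays, and its lowest signal above background was 7.03, against 6.55 to 6.70. It was also the array on which Irf5 was not above background, and the part of its detection level in these differences was not tested. The Ifnb1 difference was 0.043 without Pak1 +/+ replicate 2 and 1.31 without Pak1 +/+ replicate 1, where it passed. Ifng, Ifna4 and Ifne were not above background on any array. Many interferon-alpha genes are near-identical, and their probes may read each other's RNA. Of 6 receptor genes, 3 were higher in the Pak1 -/- samples, namely Ifnlr1 (1.16), Ifngr2 (0.89) and Ifnar1 (0.86), and none was lower, with a median of 0.52. Over all tested genes, 22.8% were higher and 28.2% lower.

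The genes that the family is known to drive were higher almost throughout. All 20 genes of a list of ISRE-driven targets were tested and were higher in the Pak1 -/- samples, with a median difference of 6.20 beside -0.055 over all tested genes. Of these, 2 (Rsad2 and Mx1) were at background in both Pak1 +/+ samples and so entered the test through the Pak1 -/- samples alone. The 16 with signal on all 4 arrays were also all higher, with a median of 6.50. The largest were Oas2 (8.01), Ifit3 (7.66), Ifit1 (7.25) and Oas1a (7.22), which encode antiviral proteins that act on foreign RNA. Oas2, for example, read 15.64 and 15.42 in the Pak1 -/- samples and 7.50 and 7.54 in the Pak1 +/+ samples. On a list of 16 genes known as targets of Irf1 or Irf8, 15 were tested and 14 were higher, with a median of 2.07. Il15 and the brightest probe of Nlrc5 were at background in both Pak1 +/+ samples, and the median was 1.80 with both at their bound. Of the 13 with signal on all 4 arrays, 12 were higher. Psmb8 (6.85) and Psmb9 (2.87), subunits of the immunoproteasome, and Gbp2 (4.40), a guanylate-binding protein, were among them. Nlrc5, the activator of class I antigen presentation genes, was higher on both of its probes. The brightest was at least 13.4-fold higher, and the other, which was above background in 1 of the Pak1 +/+ samples, differed by 0.88. Ciita, the activator of class II genes, differed by 0.02 (SE 0.14, limma adjusted p = 0.93), and the phagocyte gene Cybb was not above background on any array. Many of the genes on this list are also known to respond to Irf9 and its partners.

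**Figure D4:**
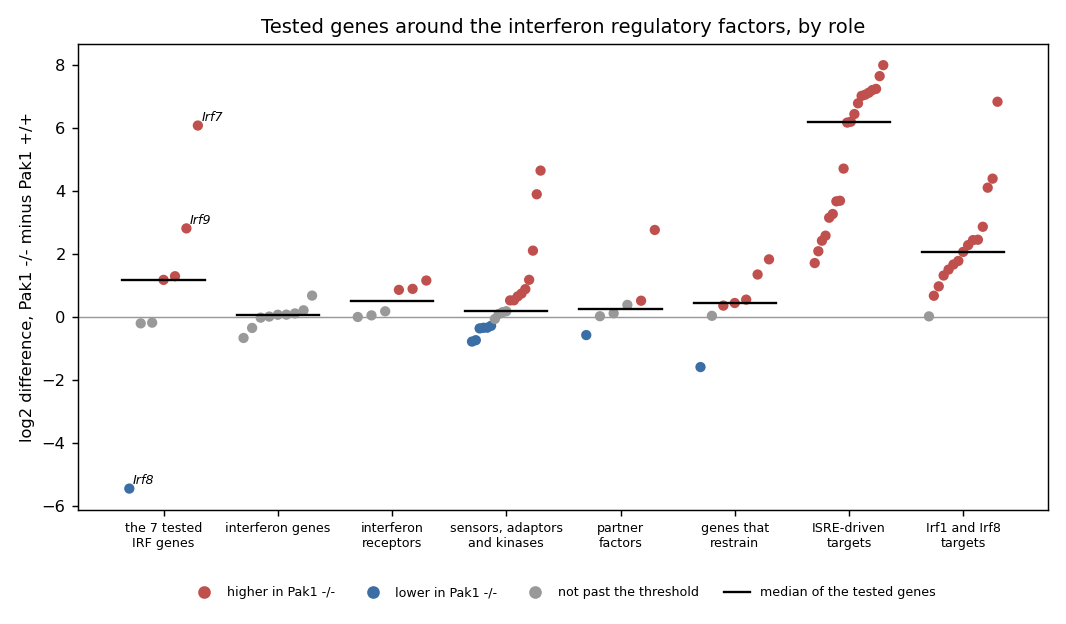
Log2 difference (vertical axis, Pak1 -/- minus Pak1 +/+) of each tested gene, in columns by role, with red for higher, blue for lower, grey for not past the threshold and a line for the median of each column. The ISRE-driven targets all lie above 1, the interferon genes all lie in grey around 0, and Irf8 lies apart from every other gene shown.

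The genes whose values over the 4 arrays were most like those of Irf7 and Irf8, once each gene was centred on its own mean, were found by Euclidean distance among 22004 other tested genes. For Irf7 they were Oasl1, at a distance of 0.16, D14Ertd668e at 0.16 and Isg15 at 0.18. Oasl1 read 15.21 and 15.30 against 8.97 and 9.11. For Irf8, whose Pak1 -/- values are at background so that the distance rests partly on the offset, they were the semaphorin gene Sema3b, at a distance of 0.17, the potassium channel subunit Kcne3 at 0.33 and Cd177 at 0.35. Sema3b read 7.51 and 7.75 against 13.09 and 13.06. With 4 arrays, the distance reflects mainly the size of the difference between groups.

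Tested genes that flank each factor were also read. The neighbours of Irf7, Phrf1 (-0.04) and Cdhr5 (-0.17), did not pass, nor did those of Irf5, Kcp (0.16) and Tnpo3 (-0.26). Those of Irf8 also did not pass, with Cox4i1 at 0.25 and Mthfsd at -0.24, although each passed in 2 of the alternative settings. Beside Irf9, Rnf31, a subunit of the linear ubiquitin ligase, was higher by 1.17 (limma adjusted p = 0.0012) and Rec8 (0.23) did not pass. Irf1 lay between Rad50, which fell by 0.53, and the carnitine transporter gene Slc22a5, which fell by 0.83. Irf3 and Irf4, which did not pass or were not tested, each had 1 neighbour that did: Bcl2l12 beside Irf3 was higher by 0.79 and Exoc2 beside Irf4 was higher by 0.64. Scaf1 (0.18) and Dusp22 (-0.15), on their other sides, did not pass, nor did Stox2 (-0.28) beside Irf2.

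**Figure D5:**
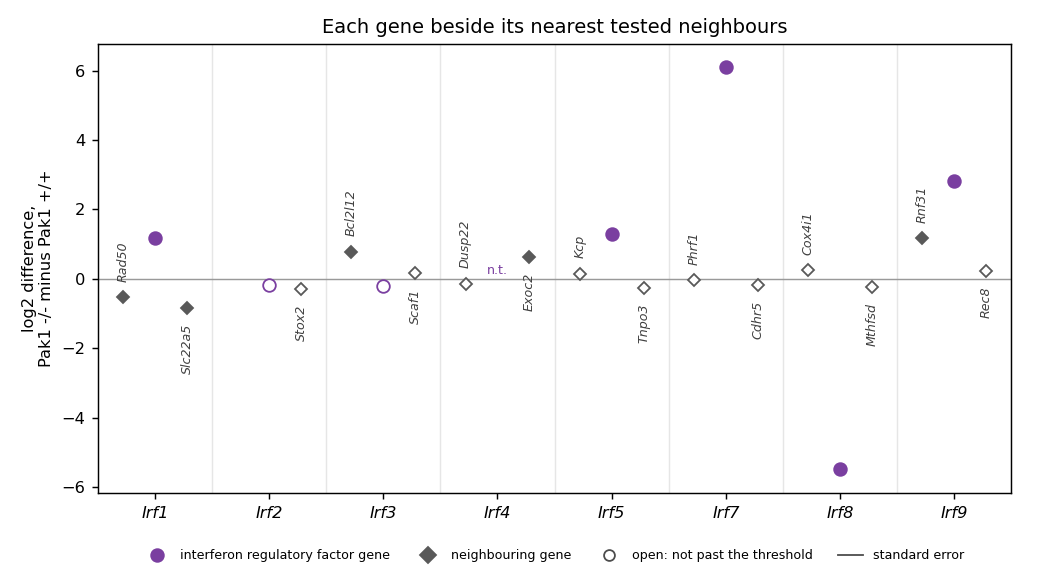
Log2 difference (vertical axis, Pak1 -/- minus Pak1 +/+) of each gene of the family (circles) and of the flanking tested genes shown (diamonds), with standard errors as bars, open symbols where the threshold was not passed and n.t. where Irf4 was not tested. Irf7, Irf8 and Irf5 passed the threshold and neither of their neighbours did, and Irf9 lies beside 1 neighbour, Rnf31, that was also higher.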

How the data were processed

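Total RNA of 4 samples was measured on single-colour arrays. The authors deposited scanner files with linear spot intensities made by Agilent Feature Extraction 9.5.3.1, not normalized between arrays, and a table of log2 values that their methods describe as normexp corrected and quantile normalized. That deposited log2 table held values in 24008 of 39485 rows and served as an alternative.

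Spot means and local background medians were corrected with normexp (offset 50) in limma 3.58.1 under R 4.3.3, control spots were dropped, and the log2 values of the other 43020 spots were quantile normalized. Outlier spots were then removed and repeated spots averaged, which left 39429 probes. The 27229 probes well above background on at least 2 arrays were compared with lmFit and eBayes (two-sided, genotype as the only term), as in the study's methods, and adjusted by the Benjamini-Hochberg method. The offset and the filter were set here. The script was tested on simulated data.

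Probes were named by RefSeq accession in a GRCm38.p6 table, where 26055 of 32334 probes with an accession matched, and otherwise by the file's symbol. All 8 genes had a promoter entry in RefSeq for GRCm38.p6. No protein sequences were used here. The genes and all lists were chosen with earlier results of these data known. Named genes were the family, Pak1, the tested partners, signalling genes and flanking genes, and from each other list the 4 largest changes past the threshold in each direction. Outside that rule, list genes that were undetected or did not pass, Ifna11, Ifna12 and genes that carry a marker sum were named after their values were seen. Some list and flanking genes are not reported here.

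The p-values rest on the spread between 2 samples a group, which limma draws towards a value common to all tested probes. The number of arrays limits their precision. An exact permutation test of 2 against 2 samples cannot give a p-value below 0.333. The offset makes the fold changes of dim probes smaller. Alternatives covered the offset, the scanner software's processed intensity, 2 other scalings, the filter, the probe rule, the threshold, a replicate block, the authors' log2 table and each sample left out.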

Additional observations from a re-analysis of the deposited data

How the results depend on the processing

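Under 15 alternatives, all 103 values that the 7 tested genes could be given kept the direction and the side of the threshold of the values above. The count of higher genes was 4 throughout, except 3 when a probe had to be well above background on all 4 arrays, where Irf5 could not be tested. Under that filter the count of lower genes was 0 in place of 1, because Irf8 was dim in the Pak1 -/- samples and left the test. Leaving out each sample in turn gave 1.05 to 1.31 for Irf1, 1.2 to 1.39 for Irf5, 6.0 to 6.18 for Irf7, -5.59 to -5.34 for Irf8 and 2.66 to 2.98 for Irf9, with a highest limma adjusted p of 0.017. The lone sample left in a group is then assumed to vary like the other group. The values that moved most came from the processed signal (Irf5 2.37, Irf8 -8.14) and from an offset of 0 (Irf5 1.89, Irf8 -6.60), in which dim values are not raised. Replicate numbers did not pair the samples (correlation of replicate deviations -0.028). With the replicate number as a block, Irf1 was 1.18 (limma adjusted p = 0.0028) and the family's counts stayed at 4 and 1. Among the other named genes that were rerun, the block turned the calls of Crebbp, Mavs, Krt18 and Itgam.

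Among the other named genes that were rerun, sign changes occurred only in genes that did not pass the threshold in the values above. Under cyclic loess, Tlr7 was 0.027 and Phrf1 0.063. Under 75th percentile scaling of the processed signal and of the normexp values, Scaf1 was -0.049 and -0.013, Cox4i1 was -0.058 and -0.049, and Siglech was -0.066 and -0.034. Cyld was -0.00054 with the processed signal. The mean over probes gave Dusp22 0.15. With samples left out, Tlr7 ran from -0.15 to 0.025, Myd88 from -0.031 to 0.21, Ep300 from -0.097 to 0.14 Ciita from -0.15 to 0.19 and Cyld from -0.037 to 0.11. The cause was not tested. Calls of small differences also turned: Cox4i1 passed with the filter on all 4 arrays and in the authors' table (0.28), Mthfsd with the mean over probes (-0.36) and without Pak1 -/- replicate 1 (-0.38), Tlr9 with cyclic loess (0.24), and Tnpo3 without Pak1 -/- replicate 1 (-0.36). Mavs missed the threshold with the replicate block (limma adjusted p = 0.052) and cyclic loess, and Tmem173 with cyclic loess. Among the cell type markers, the calls of Krt8, Krt18, Krt5, Trp63, Erbb2, Cd4 and Fcer1g missed the threshold under at least 1 alternative other than a stricter threshold, and those of Siglech, Itgam, Epcam and Krt19 passed under at least 1. Pak1 passed with cyclic loess (0.27). For markers that did not pass, other than Siglech, Itgam, Epcam and Krt19, values under the alternatives are not reported here. Depth has no counterpart here, and signal over background limits Irf4, Irf5, Irf8 and the second Irf1 probe.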
